A study of Homo sapiens with 6 samples.

Results

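The 10 genes described here are CCN1, CCN2, ANKRD1, AMOTL1, AMOTL2, AJUBA, LATS2, YAP1, WWTR1 and TEAD1, taken from 26613 genes with at least 1 count. They were listed by name as parts or classical targets of the YAP/TEAD pathway, and they were selected on earlier results of this same comparison, in which CCN1 and CCN2 were high after the mimic. Their fold changes are therefore a description, with no p-value of their own. The libraries came from 293T cells, an easily transfected line derived from human embryonic kidney cells that carries the SV40 large T antigen. Cells of 3 cultures received a miR-941 duplex at 10 nM with the lipid reagent Lipofectamine 2000, and cells of 3 other cultures received a scrambled oligonucleotide, called mock here, whose concentration the labels do not give. How long after transfection the RNA was taken is not stated in the labels. Total RNA without its ribosomal part was sequenced in single reads of 100 bases, and the deposited values are counts per gene. Both groups are transfected cells of 1 line, so there is no untransfected baseline and nothing speaks for other cell types.

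The YAP/TEAD pathway is the output of Hippo signalling. The kinases STK3 and STK4 (MST2 and MST1), with the adaptor SAV1, activate LATS1 and LATS2, which phosphorylate the coactivators YAP1 and WWTR1 (also called TAZ) and keep them out of the nucleus. Unphosphorylated YAP1 and WWTR1 bind the TEAD factors on DNA and raise genes such as CCN1, CCN2 and ANKRD1. AMOTL2 and LATS2 are also targets that feed back on the pathway. In 293-derived cells the pathway is known to respond to cell density, serum and the actin skeleton. YAP1 and WWTR1 are controlled largely by phosphorylation and location, which RNA counts do not measure.

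Total counts per library were 6079420 to 7651046, so 3 counts, the limit that a count of 0 allows, correspond to 0.392 to 0.493 CPM (counts scaled to a common library size of 1e+06). A chi-square value per degree of freedom, which is 1 where libraries differ by counting noise alone, was 3.58 to 4.8 between groups and 1.27 to 2.38 within them. Both values above 2 within a group involved mimic replicate 3. Markers of 293-derived cells were present, with PAX2 at 5.97 to 10.9 CPM, NEFM at 54.1 to 83.9, LIN28B at 141 to 174 and VIM at 942 to 1070. NEFL had no count under its current Ensembl identifier, and the tables may hold it under an older one. NEFM, a neurofilament gene, was itself higher after the mimic (log2 fold change 0.55, adjusted p = 9.13e-10, edgeR's quasi-likelihood test). Of 6 markers of fibroblasts, leukocytes and endothelium, COL1A1 was present at 35.4 to 41.1 CPM. COL3A1 and CDH5 did not exceed 0.417 and 0.328 CPM, and DCN, PTPRC and PECAM1 had no count under their current identifiers. Summed over the 6 markers, the level was 36.4 to 41.2 CPM in mimic libraries and 35.7 to 38.7 CPM in mock libraries. Almost all of this sum is COL1A1, so it says little about leukocytes or endothelium.

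The sequences shown are the microRNA that was transfected, the stretches that resemble its sites, and promoters of genes described here that passed or did not pass the test. The mature strand of miR-941 comes from RefSeq (GRCh38.p14), which places it in 5 genes on chromosome 20, the first at chr20:63919495-63919517 on the plus strand. The capitals mark the seed, bases 2 to 8 counted from the 5′ end.
miR-941: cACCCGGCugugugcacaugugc

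The seed pairs with the site GCCGGGT in an mRNA. None of the 10 genes had this site in its longest annotated 3′ UTR, where 634 of 12997 tested genes, or 4.88%, had one, and no other annotated 3′ UTR of the 10 held it either. These UTRs ranged from 770 bases in ANKRD1 to 7261 bases in TEAD1. The shorter site CCGGGT, for bases 2 to 7, was present in 1 of the 10, AMOTL1, against 13.4% of the tested genes. It lies 1305 bases into a 3′ UTR of 5958 bases, at chr11:94872100-94872105 on the plus strand of GRCh38, and AMOTL1 was higher, not lower, after the mimic. The capitals mark the site.
AMOTL1: gtcaggtttttCCGGGTttcagttttga

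RefSeq promoters were found for 8 of the 10 genes, all but CCN1 and TEAD1. The TEAD motif searched was GGAATG on either strand (CATTCC on the opposite one), in the 250 bases before each transcript start. CCN2 had 3 matches, at 169 to 164, 104 to 99 and 95 to 90 bases before its start. Only 29 of 35116 RefSeq promoters, or 0.0826%, held 3 or more, and 11.9% held at least 1. ANKRD1 had 2 matches, at 220 to 215 and 128 to 123 bases before its start. Among the 8 genes 5 had a match before at least 1 start, against 14.3% of 27305 genes. Nothing is read from this share, since the genes were listed by name as parts or targets of the pathway. The other 3 of those 5 were YAP1, AMOTL2 and AJUBA with 1 match each, in AMOTL2 and AJUBA before the second of their listed starts. AMOTL1, LATS2 and WWTR1 had none in these windows. The AP-1 motif TGANTCA matched once in ANKRD1 and in no other of the 8 genes, against 8.06% of the 27305 genes. The CArG box bound by SRF matched in none of the 8, against 1.44% of genes. A match of letters is not a measured binding site. The 3 stretches below end at the last base before the transcript start, with TEAD motifs in capitals, and show CCN2 and AMOTL1, which were higher after the mimic, beside ANKRD1, which did not pass the test. They lie at chr6:131951373-131951622 (minus strand), chr11:94768106-94768355 (plus strand) and chr10:90921088-90921337 (minus strand) of GRCh38.p14, in the order CCN2, AMOTL1, ANKRD1. The RefSeq start of AMOTL1 used here lies inside its GENCODE gene, which starts at 94706431, and the bases before that GENCODE start were not searched. The windows of WWTR1 also lie inside its GENCODE gene. The window of ANKRD1 crosses its GENCODE start at 90921276, so part of it lies inside the gene.
CCN2: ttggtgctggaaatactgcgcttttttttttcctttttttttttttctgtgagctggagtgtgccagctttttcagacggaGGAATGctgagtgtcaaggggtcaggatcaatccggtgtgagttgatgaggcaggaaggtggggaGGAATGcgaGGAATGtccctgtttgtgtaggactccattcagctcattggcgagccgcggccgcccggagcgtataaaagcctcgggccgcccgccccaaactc
AMOTL1: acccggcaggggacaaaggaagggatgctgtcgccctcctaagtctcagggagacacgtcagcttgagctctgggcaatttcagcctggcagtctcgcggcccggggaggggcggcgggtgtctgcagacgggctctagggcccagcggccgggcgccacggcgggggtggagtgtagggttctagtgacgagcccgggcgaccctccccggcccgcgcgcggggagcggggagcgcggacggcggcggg
ANKRD1: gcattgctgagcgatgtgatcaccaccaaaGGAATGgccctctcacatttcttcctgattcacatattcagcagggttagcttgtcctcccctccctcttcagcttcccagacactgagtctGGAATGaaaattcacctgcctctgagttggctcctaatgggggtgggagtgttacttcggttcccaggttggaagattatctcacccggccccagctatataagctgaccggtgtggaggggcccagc

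**Figure D1:**
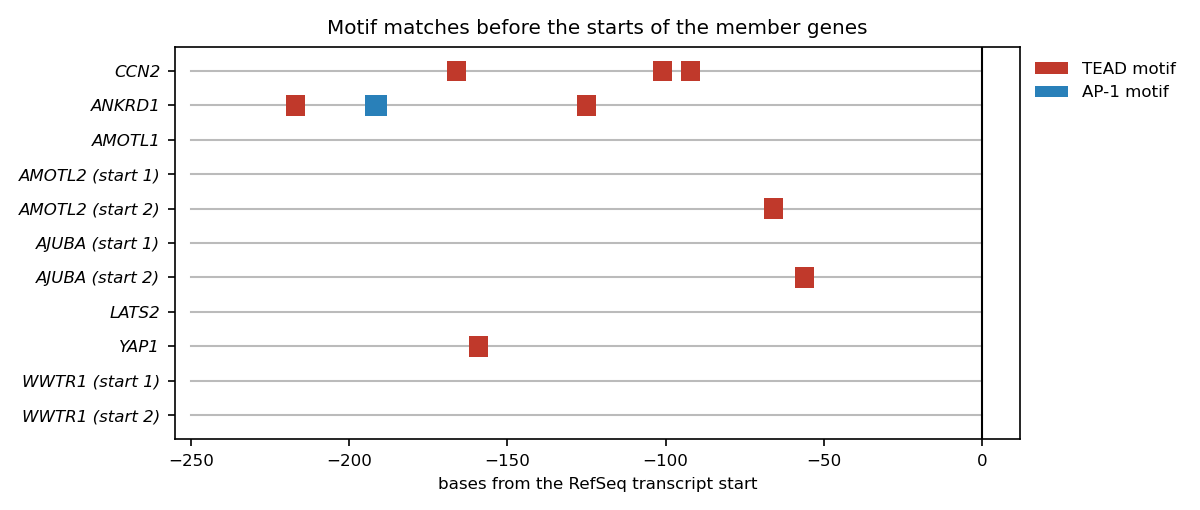
Positions of motif matches before the RefSeq transcript starts of 8 genes, in bases from the start, with TEAD matches in red and AP-1 matches in blue. CCN2 carries 3 TEAD matches and ANKRD1 carries 2, while AMOTL1, LATS2 and WWTR1 carry none in the 250 bases drawn.

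The secreted targets CCN1 and CCN2 had the largest differences of the 10 genes. CCN1 (ENSG00000142871, chr1:85580761-85583962 in GRCh38) encodes a matricellular protein that binds integrins, and CCN2 (ENSG00000118523, chr6:131948176-131951373) its relative known as connective tissue growth factor. CCN1 had 134, 120 and 131 CPM in the mimic libraries, against 87.3, 78.4 and 72.5 CPM in the mock libraries. Every mimic library was above every mock library, and the lowest mimic value was mimic replicate 2. The means were 129 ± 7.36 CPM with the mimic and 79.4 ± 7.49 CPM in mock (SD, n = 3 each), a log2 fold change of 0.69 ± 0.06 (SE) or 1.61-fold. In counts, CCN1 had 834 to 1018 per mimic library and 442 to 644 per mock library. CCN1 stood 140th among 15607 tested genes ordered from the largest rise. These are shares of the RNA of whole cultures, so more RNA per cell and more cells with the transcript cannot be told apart.

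CCN2 followed the same pattern at a higher level. It had 193, 179 and 203 CPM in the mimic libraries, against 134, 123 and 125 CPM in the mock libraries, with no overlap. The log2 fold change was 0.59 ± 0.05, or 1.5-fold, and the means were 192 ± 11.8 and 127 ± 5.69 CPM for mimic and mock. Per kilobase of exon, CCN2 was 1.56 ± 0.0585 times CCN1 in mimic libraries and 1.69 ± 0.106 times in mock libraries, and these ratios overlapped. Like CCN1, CCN2 was lowest in replicate 2 among the mimic libraries and highest in replicate 1 among the mock libraries.

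ANKRD1 (ENSG00000148677, chr10:90912096-90921276), which encodes a nuclear ankyrin-repeat protein of muscle and is the third classical target, did not follow them. It had 93.1, 78.1 and 88.5 CPM in the mimic libraries, against 85.2, 75.9 and 81.8 CPM in the mock libraries. The groups overlapped, and the log2 fold change was 0.10 ± 0.06 with a 95% interval of -0.03 to 0.22. With about as many counts as CCN1 in mock, 499 to 628 per library, ANKRD1 was measured with similar precision. Its upper bound lies below the lower bounds of CCN1 (0.57) and CCN2 (0.48). These intervals take no account of the selection on high CCN1 and CCN2, so nothing is concluded from their separation.

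**Figure D2:**
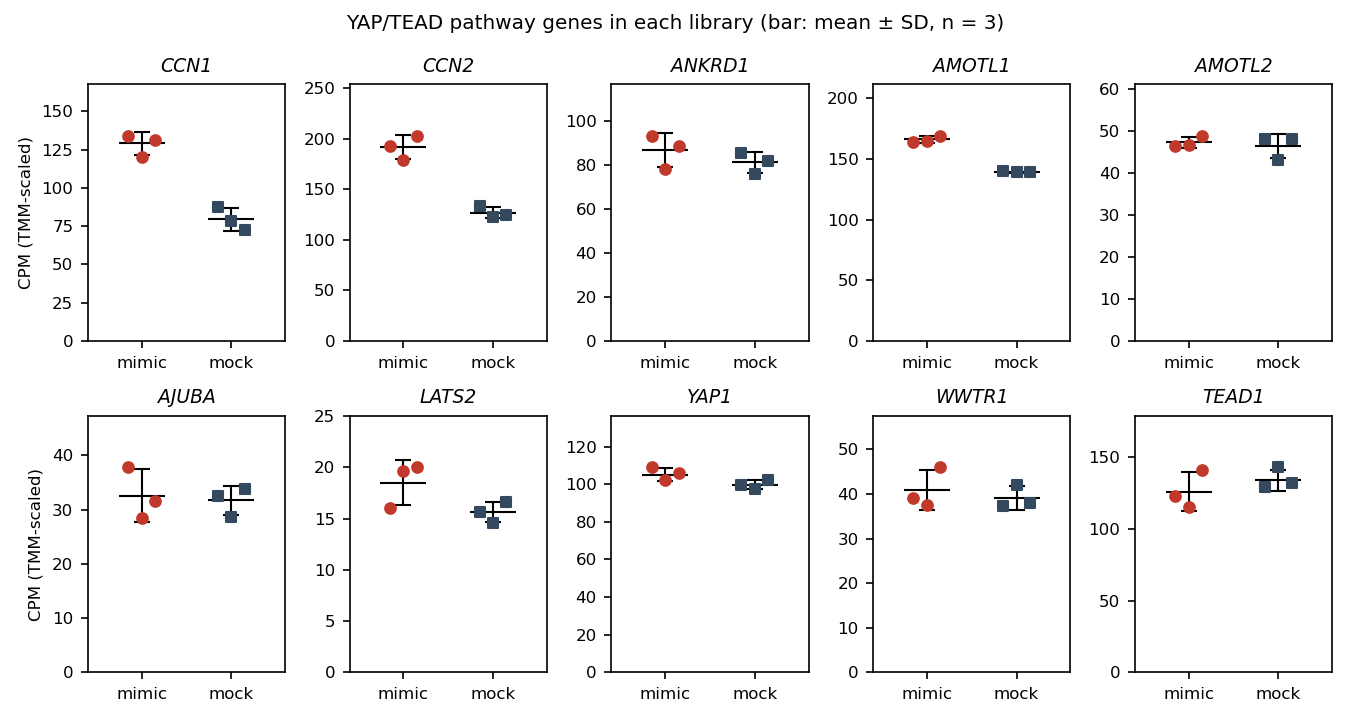
TMM-scaled CPM of the 10 genes in each library, with mimic libraries as red circles left of mock libraries as dark squares, and bars for the mean and SD of 3 libraries. The groups are apart in CCN1 (120 to 134 against 72.5 to 87.3), CCN2 and AMOTL1 and overlap in the other 7 genes.

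Of the scaffolds, AMOTL1 rose and AMOTL2 and AJUBA did not pass. AMOTL1 (ENSG00000166025, chr11:94706431-94876753) and AMOTL2 (ENSG00000114019, chr3:134355874-134375479) are angiomotin-like junction proteins that bind YAP1 and hold it in the cytoplasm. AMOTL1 had 164, 165 and 169 CPM in the mimic libraries, against 140, 139 and 139 CPM in the mock libraries. The groups were apart and the mock libraries almost equal, with means of 166 ± 2.65 and 139 ± 0.271 CPM for mimic and mock and a log2 fold change of 0.25 ± 0.05, or 1.19-fold. AMOTL2 had 46.4, 46.7 and 48.8 CPM in the mimic libraries, against 48, 43.1 and 48 CPM in the mock libraries. These overlapped, at 0.03 ± 0.08 with an interval of -0.12 to 0.18. The ratio of AMOTL1 to AMOTL2 per kilobase of exon was 2.06 to 2.10 in mimic libraries and 1.73 to 1.93 in mock libraries. Exons of AMOTL2 overlap the ribosomal protein pseudogene RPL39P5 on the same strand, which had 6.76% as many counts.

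AJUBA (ENSG00000129474, chr14:22971174-22982642), a LIM-domain protein that restrains LATS kinases at junctions, had 37.8, 28.4 and 31.6 CPM in the mimic libraries, against 32.6, 28.6 and 33.8 CPM in the mock libraries. The spread among the mimic libraries, with replicate 1 highest, exceeded the difference of the means, and the log2 fold change was 0.05 ± 0.09. It was -0.08 without mimic replicate 1 and -0.02 without mock replicate 2. Exons of an unnamed gene, ENSG00000259132, overlap 0.836% of AJUBA's exon bases on the same strand, and that gene had 59.8% as many counts as AJUBA.

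LATS2 (ENSG00000150457, chr13:20973032-21061547), the kinase that phosphorylates YAP1 and WWTR1 and is itself a target of TEAD, had the lowest level of the 10 genes. It had 16, 19.6 and 20 CPM in the mimic libraries, against 15.6, 14.6 and 16.6 CPM in the mock libraries. Mimic replicate 1 lay within the mock range and the other mimic libraries above it. The log2 fold change, 0.24 ± 0.12, was close to that of AMOTL1, but its 95% interval, 0.01 to 0.48, was wider at 101 to 140 counts per library, and it did not pass. Without mimic replicate 1 it was 0.35, and it still did not pass.

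The coactivators and TEAD1 did not pass in either direction. YAP1 (ENSG00000137693, chr11:102110461-102233423) had 109, 102 and 106 CPM in the mimic libraries, against 99.4, 97.5 and 102 CPM in the mock libraries. Most mimic values were above the mock values, with an overlap near 102 CPM and a log2 fold change of 0.08 ± 0.06, with an interval of -0.03 to 0.19. WWTR1 (ENSG00000018408, chr3:149517235-149736714) had 39, 37.6 and 46 CPM in the mimic libraries, against 37.3, 42.1 and 37.9 CPM in the mock libraries, at 0.06 ± 0.08, and the groups overlapped. It was -0.03 without mimic replicate 3. The antisense gene WWTR1-AS1 overlaps 9.45% of its exon bases and had 6.6% as many counts. TEAD1 (ENSG00000187079, chr11:12674591-12944483), a DNA-binding factor of the pathway, had 123, 115 and 141 CPM in the mimic libraries, against 129, 143 and 132 CPM in the mock libraries. The groups overlapped. Its log2 fold change was -0.09 ± 0.06, with an interval of -0.21 to 0.02. WWTR1 and TEAD1 were both highest in replicate 3 among the mimic libraries and in replicate 2 among the mock libraries. Without mimic replicate 3 the value of TEAD1 was -0.18, and it then passed the threshold.

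In all, 3 of the 10 genes passed an adjusted p of 0.05 in edgeR's quasi-likelihood test, all risen. Over all 15607 tested genes 13.0% passed, 6.80% risen and 6.19% fallen, and nothing is read from this share, since the genes were chosen with these values known. All 10 passed the filter on low counts. The 3 genes with no overlap between groups were also CCN1, CCN2 and AMOTL1, against 28.3% of all tested genes. The median log2 fold change of the 10 was 0.09 and that of all genes tested 0.0018. CCN1, CCN2 and AMOTL1 passed under all 11 alternative settings run, within 0.63 to 0.77, 0.55 to 0.63 and 0.23 to 0.26.

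**Figure D3:**
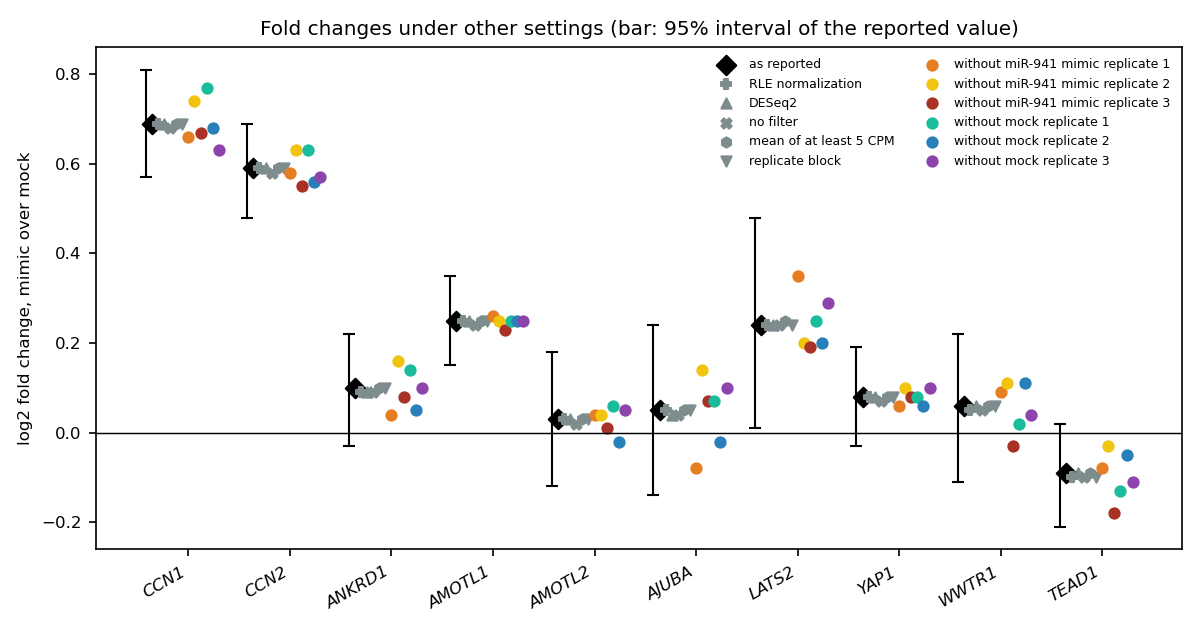
Log2 fold change (mimic over mock) of the 10 genes as reported (black diamonds, with 95% intervals) and under 11 other settings, with grey marks for other tools, scaling, filters and the replicate block and coloured circles for each library left out. CCN1 stays between 0.63 and 0.77 and CCN2 between 0.55 and 0.63, while AMOTL2, AJUBA and WWTR1 cross 0.

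Levels between genes were compared as CPM per kilobase of merged exon in GENCODE release 29, whose gene models may differ from the hg19 models of the counts. In mimic libraries the order was CCN2 (81.9 ± 5.04), CCN1 (52.4 ± 3), ANKRD1 (43.7 ± 3.88), YAP1 (16.7 ± 0.554), AMOTL1 (16.5 ± 0.264), TEAD1 (12.3 ± 1.30), AMOTL2 (7.9 ± 0.219), AJUBA (5.45 ± 0.806), WWTR1 (4.86 ± 0.532) and LATS2 (3.32 ± 0.397). Of these neighbours YAP1 and AMOTL1 overlapped, and so did AJUBA and WWTR1. In mock libraries CCN2 was again first (54.4 ± 2.43), but ANKRD1 (40.9 ± 2.37) stood above CCN1 (32.3 ± 3.05), with no overlap in either group. AMOTL1 (13.9 ± 0.027) and TEAD1 (13.1 ± 0.712) overlapped in mock, as did AJUBA and WWTR1. YAP1 was 3.47 ± 0.349 times WWTR1 in mimic libraries and 3.42 ± 0.286 times in mock libraries, so the balance of the coactivator transcripts moved by less than its spread.

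Other members of these families showed which paralogs the cells had. The 4 TEAD genes had similar levels per kilobase. In CPM, TEAD1 was higher, at 126 ± 13.4 in mimic and 134 ± 7.32 in mock, against means of 25.4 to 42.1 for TEAD2 to TEAD4. The likeness thus depends on the merged exon lengths, 10279 bases for TEAD1 and 2272 to 3046 bases for the others. TEAD1 made up 25.9 ± 2.21% of their sum in mimic libraries and 26.2 ± 1.81% in mock libraries, and TEAD2, TEAD3 and TEAD4 made up 22.8% to 27.7% each. TEAD2 (-0.02 ± 0.09), TEAD3 (-0.12 ± 0.08) and TEAD4 (-0.05 ± 0.10) did not pass, nor did VGLL3 (-0.06 ± 0.09) and VGLL4 (0.15 ± 0.08), cofactors that bind TEAD, with adjusted p of 0.244 to 0.931 by edgeR's quasi-likelihood test. At an unadjusted p under 0.05 the count over these 5 genes was also 0, against 3979 of 15607 tested genes. DESeq2 also called 0 of the 5. VGLL4 passed without mimic replicate 3, at 0.24, with an adjusted p of 0.0259. Exons of VGLL4 overlap those of ATG7, an opposite-strand gene with 75.7% as many counts. VGLL2, at 1.76 ± 0.938 CPM in mimic and 1.43 ± 0.36 CPM in mock, was not tested, and VGLL1 had no count under its current identifier.

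Of the other CCN genes CCN3 was tested, at 11 ± 0.952 CPM with the mimic and 12 ± 0.356 CPM in mock. Its log2 fold change, -0.13 ± 0.14, did not pass (adjusted p = 0.632, edgeR). CCN6, at 1.18 CPM in both groups, and CCN5, at 0.245 CPM in mimic and 0.514 CPM in mock, were too low to be tested. CCN4 had no count under its current identifier.

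**Figure D4:**
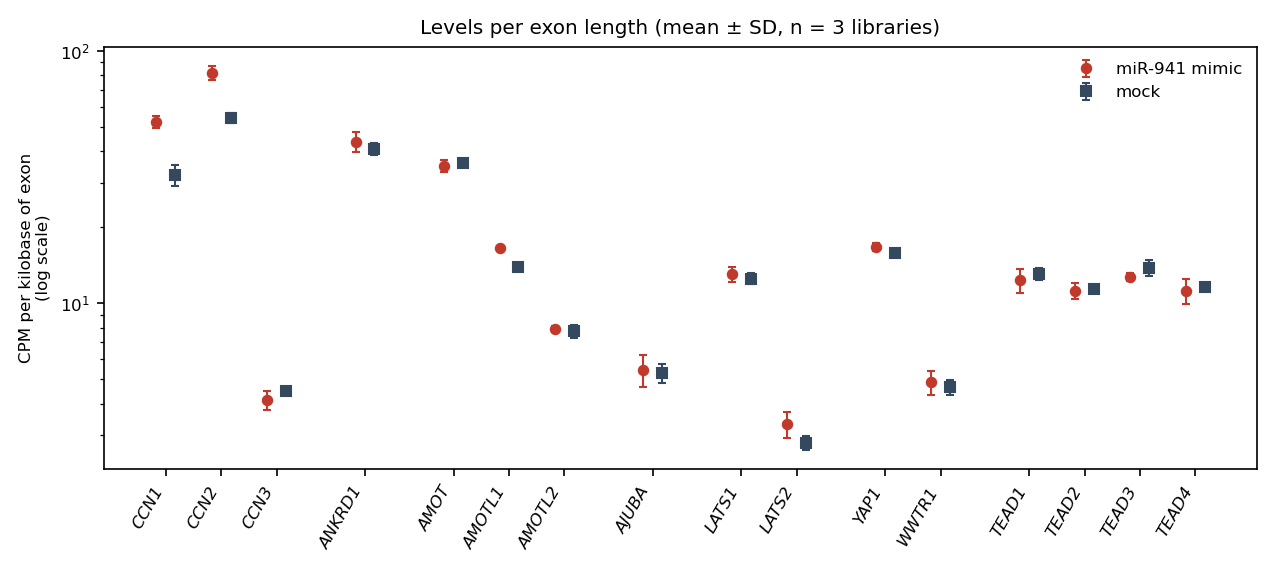
Mean CPM per kilobase of exon on a log scale for the 10 genes and their tested paralogs CCN3, AMOT, LATS1 and TEAD2 to TEAD4, with SD over 3 libraries, mimic as red circles left of mock as dark squares. CCN2 is highest (81.9 and 54.4 for mimic and mock), the 4 TEAD genes lie close together and LATS2 is lowest (3.32 and 2.79).

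The other genes of a widely used YAP/TAZ target signature did not rise together. Of 17 signature genes besides those above, 1 rose and none fell, or 5.88%. Among all tested genes the share that passed was 13.0% in either direction and 6.80% for rises alone, so the signature genes rose about as often. The 17 genes had a median of 0.00 on the log2 scale. At an unadjusted p under 0.05, edgeR gave 5 risen and 1 fallen of the 17, against 3979 of 15607 tested genes in either direction. With DESeq2 none of the 17 passed. The risen gene was CCDC80, a secreted matrix protein, at 9.34 ± 1.12 CPM with the mimic and 6.66 ± 0.495 CPM in mock. Its log2 fold change was 0.49 ± 0.17 (edgeR, adjusted p = 0.0427). CCDC80 no longer passed when mimic replicate 2 or 3 or any mock library was left out, with edgeR adjusted p of 0.0623 to 0.152, or with the replicate number as a block (0.053). Without mimic replicate 3 the count was 1 fallen gene and none risen. The largest values below the threshold were RBMS3 at 0.46 ± 0.17 and FJX1 at 0.37 ± 0.14, both named after their values were seen, and 9 of the 17 were at or below 0.

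Among kinases and adaptors that act on YAP1 and WWTR1, 1 of 17 rose and 3 fell, or 23.5% against 13.0% of all tested genes, with a median of -0.01. SAV1, the scaffold that couples STK3 and STK4 to LATS kinases, had 25.3, 25.1 and 28 CPM in the mimic libraries, against 33.1, 38 and 36.2 CPM in the mock libraries. The groups were apart, at -0.45 ± 0.09 (edgeR, adjusted p = 1.66e-04). Exons of SAV1 overlap those of ATL1, an opposite-strand gene with 35% as many counts and a log2 fold change of -0.24. Reads of such pairs cannot be told apart unless the counting used strand. TAOK1, a kinase upstream of STK3 and STK4, fell to 129 ± 8.59 CPM with the mimic, against 148 ± 1.93 CPM in mock (-0.20 ± 0.05, adjusted p = 0.00767, edgeR). Its call ended without mimic replicate 1 (adjusted p = 0.0547) and without mimic replicate 2 (0.0668). TAOK1 had a GCCGGGT site in its longest annotated 3′ UTR, 188 bases into 8882 bases, at chr17:29543210-29543216 on the plus strand of GRCh38, with the site in capitals.
TAOK1: agtacttggctGCCGGGTttgtttgtttt

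NF2, the tumour suppressor merlin that brings LATS kinases to the membrane, fell to 66.1 ± 4.47 CPM with the mimic, against 75.8 ± 4.87 CPM in mock (-0.19 ± 0.07). NF2 was close to the threshold (edgeR, adjusted p = 0.0422), and leaving out mimic replicate 1 or 3, or mock replicate 1 or 3, gave 0.0547 to 0.247. DESeq2 gave an adjusted p of 0.16 and the replicate block 0.0626. MAP4K4, a kinase that acts on LATS in parallel to STK3 and STK4, rose to 194 ± 11.5 CPM with the mimic, against 167 ± 8.67 CPM in mock (0.21 ± 0.05, adjusted p = 0.00209, edgeR), and 0.0547 without mock replicate 3, where 2 genes of the list fell and none rose. Without mimic replicate 1 the split of this list turned, with 2 risen and 1 fallen. STK3 (-0.02 ± 0.11), STK4 (-0.04 ± 0.06) and LATS1 (0.06 ± 0.06) did not pass, with adjusted p of 0.588 to 0.938 by edgeR. Of 141 tested genes of all the lists, 12 had a GCCGGGT site in their longest annotated 3′ UTR, where 4.88% of all tested genes had one. Of these 12, TAOK1 fell and none rose, where 6.19% of all tested genes fell and 6.80% rose. Whether the site acted on TAOK1 was not tested. SAV1, which fell, and CSNK1E had no site in the longest but had one in 1 of their other annotated 3′ UTRs.

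Junction and polarity genes upstream of the kinases were called about as often as all genes, with 2 of 39 risen and 3 fallen, or 12.8% against 13.0%, and a median of -0.01. The polarity scaffolds SCRIB and DLG5 rose, to 125 ± 7.79 CPM with the mimic against 100 ± 5.19 CPM in mock for SCRIB, and to 183 ± 7.62 against 154 ± 2.69 CPM for DLG5. Their log2 fold changes were 0.32 ± 0.06 and 0.25 ± 0.05, and edgeR's adjusted p-values were 2.21e-05 and 2.29e-04. TNKS2, a tankyrase that marks angiomotins for turnover, fell by 0.25 on the log2 scale, to 150 ± 3.09 CPM with the mimic against 179 ± 6.08 CPM in mock (edgeR, adjusted p = 1.35e-04). FBXW11, a subunit of the ubiquitin ligase that degrades phosphorylated YAP1, was at -0.20 ± 0.06 (adjusted p = 0.0132, edgeR), with 0.0525 when mimic replicate 1 was left out, 0.133 when mock replicate 1 was, and 0.0704 by DESeq2. The remaining gene was FRMD6, a junction protein named after its value was seen, at 20.9 ± 0.0904 CPM with the mimic and 26.6 ± 4.62 CPM in mock. FRMD6 lost its call (edgeR, adjusted p = 0.0214) when mimic replicate 1 (0.0658), or replicate 1 (0.177) or 3 (0.162) of mock, was left out, and by DESeq2 (0.118). AMOT, the founding angiomotin, was at 297 ± 16.8 CPM with the mimic and 305 ± 10.7 CPM in mock (-0.04 ± 0.05, adjusted p = 0.67, edgeR), so of the 3 angiomotins AMOTL1 alone passed the test. Without mimic replicate 1 or mock replicate 1 the list had 2 risen and 1 fallen gene.

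STRIPAK is a complex in which the phosphatase PP2A is brought to STK3, STK4 and related kinases. Of its 18 tested genes 4 fell and none rose, or 22.2% against 13.0% of all tested genes, with a median of -0.06. Over all tested genes 6.19% fell. At an unadjusted p under 0.05, edgeR gave 2 risen and 6 fallen of the 18, against 3979 of 15607 tested genes in either direction. DESeq2 also called 4 fallen and none risen, where it called 1015 genes in all, 499 of them fallen. With mimic replicate 2 or 3 left out, 1 gene of the list rose and 4 fell. The PP2A scaffold PPP2R1B had 70.7, 75.7 and 72.1 CPM in the mimic libraries, against 102, 105 and 104 CPM in the mock libraries. The groups were apart, at -0.51 ± 0.06 (edgeR, adjusted p = 5.84e-10). SIK2, on the opposite strand, overlaps 2.23% of the exon bases of PPP2R1B, with 85% as many counts and a log2 fold change of -0.10. The other PP2A scaffold PPP2R1A was at -0.22 ± 0.05, the catalytic subunit PPP2CA at -0.24 ± 0.05 and the STRIPAK adaptor MOB4 at -0.30 ± 0.07, with edgeR adjusted p of 1.51e-04 to 0.00107. The 3 PP2A subunits also serve phosphatase complexes outside STRIPAK.

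**Figure D5:**
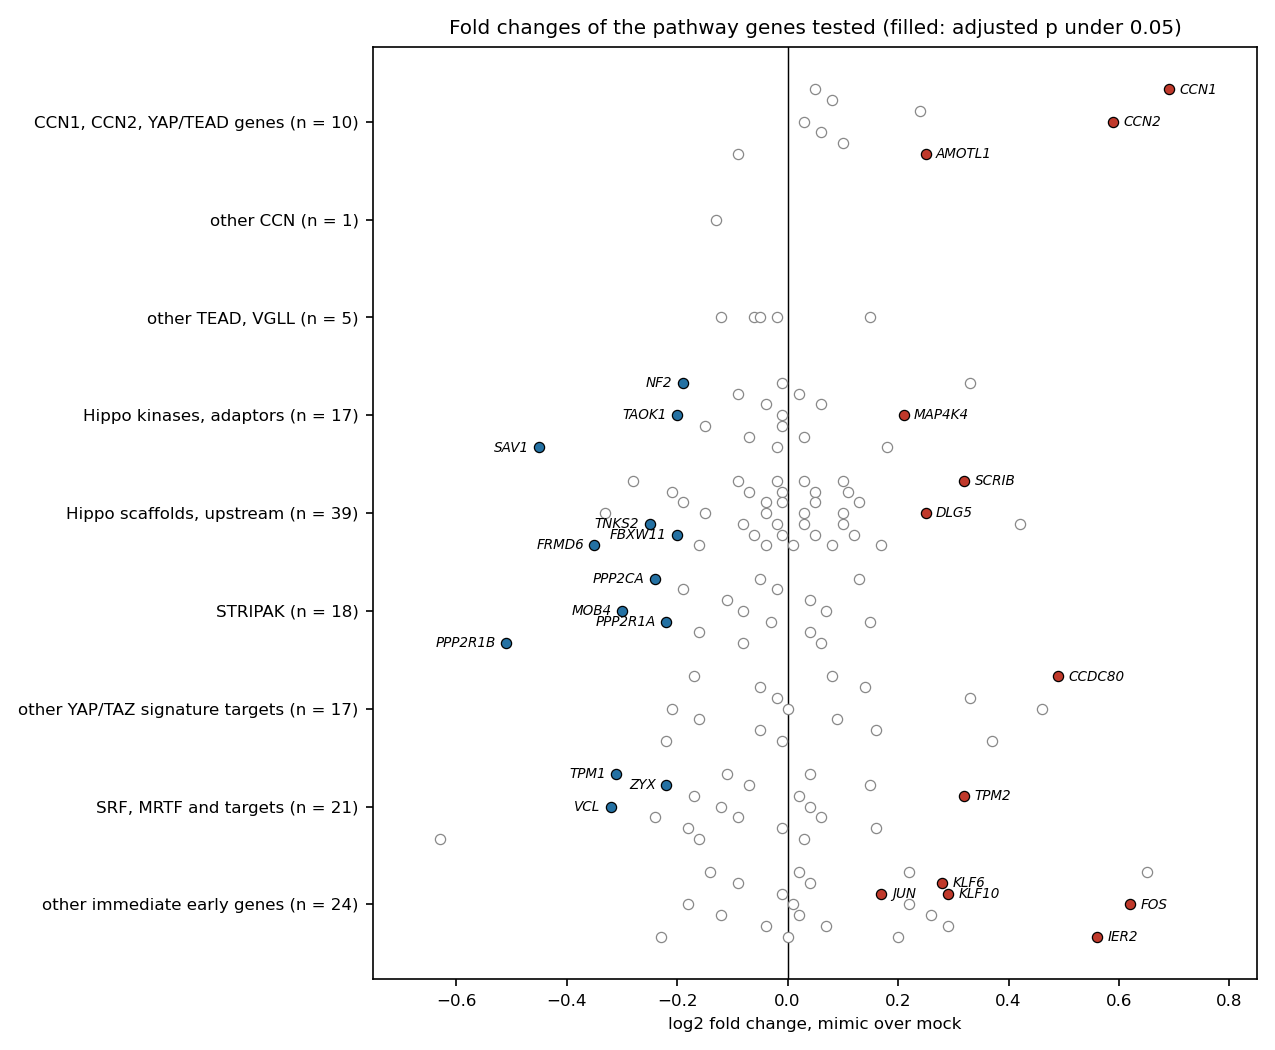
Log2 fold change (mimic over mock) of every tested gene of the 10-gene set and the other lists, 1 point per gene with vertical spread only to separate points, filled and named where the adjusted p is under 0.05 (red risen, blue fallen). CCN1 at 0.69 and CCN2 at 0.59 lie to the right of every gene of the Hippo, STRIPAK, TEAD and signature lists. Nothing is read from this place, since CCN1 and CCN2 were selected as high in this same comparison. In the immediate early list EGR3 (0.65, not past the threshold) and FOS (0.62) lie to the right of CCN2. The 4 filled STRIPAK genes all lie left of 0.

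CCN1 and CCN2 are also known targets of SRF with its cofactors MRTFA and MRTFB, and are immediate early genes, so those lists were set beside them. Of 21 tested SRF and MRTF genes and cytoskeletal targets, 1 rose and 3 fell, or 19% against 13.0% of all tested genes, with a median of -0.09. Vinculin (VCL) fell to 244 ± 3.49 CPM with the mimic, against 304 ± 2.29 CPM in mock (-0.32 ± 0.05, adjusted p = 1.85e-07, edgeR), and its exons overlap those of AP3M1, an opposite-strand gene with 46.1% as many counts. TPM1 (-0.31 ± 0.06) and zyxin, ZYX (-0.22 ± 0.05), also fell, while TPM2 rose (0.32 ± 0.08) but did not pass by DESeq2, with an adjusted p of 0.0541. SRF itself was at -0.12 ± 0.06 (adjusted p = 0.169, edgeR), and at -0.20 with an adjusted p of 0.01 without mimic replicate 3. Of 24 tested immediate early genes other than CCN1 and CCN2, 5 rose and none fell, or 20.8%, with a median of 0.06. Over all tested genes 13.0% passed in either direction and 6.80% rose. The lists were chosen with earlier results of these data known. At an unadjusted p under 0.05, edgeR gave 7 risen and 0 fallen of the 24, against 3979 of 15607 tested genes in either direction. DESeq2 called 3 risen, where it called 1015 genes in all, 516 of them risen. IER2 rose to 49.2 ± 2.60 CPM with the mimic, against 33.6 ± 3.93 CPM in mock, and JUN (0.17 ± 0.05), KLF6 (0.28 ± 0.07) and KLF10 (0.29 ± 0.07) also passed. JUN overlapped between groups and lost its call by DESeq2 (adjusted p = 0.101) and without mimic replicate 1 or 2 or mock replicate 1 or 2 (0.0504 to 0.187), and KLF6 without mimic replicate 1 (0.068). FOS, named after its value was seen (0.62 ± 0.22; edgeR, adjusted p = 0.0442), lost its call with any 1 of the 6 libraries left out (0.0505 to 0.153), with the replicate block (0.0523) and with no filter (0.0748). Leaving out mimic replicate 1 gave a count of 2, and leaving out replicate 2 of the mimic, or replicate 1 or 2 of mock, gave 3. The part of these genes' regulators in the rise of CCN1 and CCN2 was not tested.

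Genes with profiles closest to CCN1 and CCN2 were found by the root mean square difference of centred log2 CPM over the 6 libraries, among tested genes that averaged 5 CPM or more. The likeness is a description over 6 libraries, which all genes share. Closest to CCN1 were ARMCX4 (0.0576), CEP20 (0.0648), ME1 (0.0682), ZNF678 (0.0784) and then CCN2 (0.0808). ME1, the malic enzyme of the cytosol, was at 73.7 ± 1.82 CPM with the mimic and 45.6 ± 1.21 CPM in mock. Closest to CCN2 were PTMA (0.0425), CDH23 (0.0427), NEXN (0.0461), the unnamed gene ENSG00000177764 (0.048) and WBP11 (0.0483). NEXN encodes nexilin, a protein that binds actin filaments, and was at 34.6 ± 3.53 CPM with the mimic and 22.6 ± 0.497 CPM in mock. PTMA shares 100-base stretches with the pseudogenes PTMAP2 and PTMAP5, which had 2.15% and 2.17% as many counts.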

How the data were processed

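Total RNA depleted of ribosomal RNA from 3 miR-941 mimic and 3 mock cultures was sequenced, and the deposited values are raw whole-number counts, listed by Ensembl gene in a separate table for each library and not normalized. Per the submitters' processing notes, STAR, edgeR and hg19 were used, with no versions. The program and strand setting behind the counts, and their annotation, were not given in the sources used here. Genes absent from a table were taken as 0. Symbols were found for 25141 of 26613 genes.

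Samples were grouped by their titles, and the labels, which give no batch, call the transfections independent replicates. Low genes were removed by group with filterByExpr (15607 genes and 99.7% of counts kept), and library sizes were scaled with TMM factors (0.994 to 1.01). The test was edgeR's quasi-likelihood test, two-sided, with robust dispersions and group as the only term, with p-values adjusted by Benjamini-Hochberg across the 15607 genes and a threshold of 0.05. Standard errors were computed as the absolute log2 fold change over the square root of F. The tools were edgeR 4.0.16 and DESeq2 1.42.0 in R 4.3.3. The fit was tested on simulated data. Alternatives were RLE scaling, DESeq2, no filter, a filter at a mean of 5 CPM, the replicate block and each library left out.

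Named genes were the 10 members, all CCN, TEAD and VGLL genes, up to 4 passing genes per other list by smallest p (or, where none passed, up to 2 by smallest p), the cell markers, STK3, STK4, SAV1, LATS1, NF2, AMOT and SRF, and the 5 profiles closest to CCN1 and to CCN2. Members and lists were chosen with earlier results of these data known. Sequences are from RefSeq (GRCh38.p14) and GENCODE release 29 (GRCh38), not the hg19 of the counts, and sites were sought in the longest 3′ UTR of protein-coding transcripts. The 95% intervals of fold changes come from the same fit and its spread between libraries, while the limit for a count of 0 covers counting error only.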

Additional observations from a re-analysis of the deposited data

How the results depend on the processing

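CCN1, CCN2 and AMOTL1 kept their direction and passed under all 11 alternatives run, and the count of members past the threshold was 3 to 4. The count over all genes was 2027, against 1015 with DESeq2 and 1302 to 2061 with 1 library left out, lowest without mock replicate 1. With DESeq2 the counts of called genes were 3 for upstream scaffolds, 3 for immediate early genes and 0 for the signature genes, where CCDC80 was given no adjusted p. The signature count was also 0 without a filter, with CCDC80 at an adjusted p of 0.0687. With 1 library left out the counts were 0 to 1 for signature genes, 3 to 6 for scaffolds, 2 to 6 for immediate early genes, 2 to 4 for kinases, 4 to 5 for STRIPAK and 0 to 1 for TEAD and VGLL genes. No single gene named here reversed its direction while past the threshold. The causes of these shifts were not tested.

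Replicate numbers did not pair the libraries. Deviations of same-numbered mimic and mock libraries from their group means had correlations of 0.093, -0.081 and -0.047 over genes with at least 5 CPM, and only mimic replicate 1 correlated best with its own number. With the replicate block 1819 genes were called, 965 risen and 854 fallen, the same 3 members passed, and the signature count was 0 with CCDC80 at 0.053, and NF2 and FOS no longer passed. At 101 to 140 counts per library, LATS2 was the member least able to show a small change.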
